A study of Drosophila melanogaster with 2 samples.

Results

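A set of 9 genes of muscle formation in Drosophila melanogaster was followed through the binding map of the transcription factor Doc2. They were the cell adhesion genes kirre, rst and sns, the fusion adaptor gene rols, the guanine nucleotide exchange factor gene mbc, the sarcomere genes sls, Mhc and bt, and the muscle attachment gene kon. A peak was given to a gene when its summit lay in the gene body or when that gene had the nearest protein-coding transcription start site (TSS). The 9 genes are among 13945 protein-coding genes, and 8 of the 1140 peaks of the series list on the major chromosomes were given to them. The genes share known functions in muscle, and they were chosen with earlier results of these data known.

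Chromatin immunoprecipitation and sequencing (ChIP-seq) was done on whole embryos of 0 to 18 h from a strain, Doc2-GFP, in which an eGFP fusion of Doc2 is expressed. The fusion protein was precipitated with an anti-GFP antibody from chromatin sonicated to 200 to 800 bp. All the material is 1 group of 2 biological replicates of that genotype and age, with no second genotype, treatment or stage. Peaks had been called on dm6 against a control library, which was not analysed here, and the labels do not name the regulatory sequences that drive the fusion gene. Because whole embryos were used, binding is averaged over tissues: strong binding in few cells and weak binding in many cells cannot be told apart, and no peak can be placed in a cell type. Read depth is unknown, so the signal of a peak has no counting interval. The signal is the authors' own value per peak, on a scale that the labels do not name, and it serves only to describe and rank peaks within a list. The irreproducible discovery rate (IDR) states how well the rank of a peak repeats between the sets compared, and the thresholded lists end at an IDR of 0.01, a scaled score of 830.

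Body wall muscles of the fly form by fusion of founder cells with fusion-competent myoblasts. Founder cells carry the immunoglobulin-type receptors encoded by kirre (also called duf) and rst, and fusion-competent myoblasts are recognised through Sns. Inside the founder cell the adaptor Rols links the receptors to Mbc, a homologue of DOCK180 that activates the small GTPase Rac and so the actin cytoskeleton at the fusion site. The fused myotube then builds sarcomeres from myosin heavy chain (Mhc) and the giant proteins Sallimus (sls, a titin-like protein) and Projectin (bt), and attaches to tendon cells with the help of the transmembrane protein Kon-tiki (kon). Doc2 is a Dorsocross T-box protein, known from the amnioserosa, the dorsal ectoderm and the forming heart.

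The sequences around 5 of the summits are shown because they carry the peaks on which the account turns: the pair of strongest kirre sites, the kirre site with the most matches to muscle factor motifs, the site upstream of sls and the site inside mbc. Each is 201 bases of the plus strand, 100 to either side of the summit, read from the RefSeq copy of the same assembly (dm6), and none overlaps an annotated exon. Capitals mark matches, on either strand, to the Mef2 site, the forkhead site (ATAAATA or ATAAACA or GTAAATA or GTAAACA), the Tinman site (TCAAGTG or TTAAGTG), the Twist site CATATG and the letters ACAGTG. No capitals mark the general E-box CANNTG.
kirre, intron, inside CG32795, chrX:2786650-2786850: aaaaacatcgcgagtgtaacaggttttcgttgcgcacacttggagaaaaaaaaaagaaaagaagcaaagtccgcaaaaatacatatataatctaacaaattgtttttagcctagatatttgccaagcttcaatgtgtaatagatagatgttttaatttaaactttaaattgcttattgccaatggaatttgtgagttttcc
kirre, intron, inside Syx4, chrX:2743149-2743349: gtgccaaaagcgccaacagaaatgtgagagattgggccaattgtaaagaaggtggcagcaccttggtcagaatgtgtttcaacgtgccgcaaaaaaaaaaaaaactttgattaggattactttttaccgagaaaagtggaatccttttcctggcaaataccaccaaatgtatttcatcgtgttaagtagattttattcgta
kirre, intron, chrX:3019646-3019846: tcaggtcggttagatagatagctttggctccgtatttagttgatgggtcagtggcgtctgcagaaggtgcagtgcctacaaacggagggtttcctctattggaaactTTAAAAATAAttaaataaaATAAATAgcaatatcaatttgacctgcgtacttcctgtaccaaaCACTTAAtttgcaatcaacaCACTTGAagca
sls, upstream, chr3L:2115825-2116025: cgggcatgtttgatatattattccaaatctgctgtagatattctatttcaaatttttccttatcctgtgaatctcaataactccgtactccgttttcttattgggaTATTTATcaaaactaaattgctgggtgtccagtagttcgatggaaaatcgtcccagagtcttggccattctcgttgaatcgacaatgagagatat
mbc, intron, chr3R:23784182-23784382: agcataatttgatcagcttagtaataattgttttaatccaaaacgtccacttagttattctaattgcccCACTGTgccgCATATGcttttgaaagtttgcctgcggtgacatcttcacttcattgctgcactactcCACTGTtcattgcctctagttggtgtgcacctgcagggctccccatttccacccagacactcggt
The first 2 windows hold no capitals. The third kirre window holds a Mef2 site 7 bp and a forkhead site 26 bp to the right of the summit, followed by Tinman sites at 70 and 90 bp. The sls window holds a forkhead site 6 bp from the summit, and the mbc window holds a Twist site between 2 copies of ACAGTG, which read CACTGT on the plus strand.

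Doc2 peaks were given to the fusion genes kirre, sns and mbc and to 1 sarcomere gene, sls. Most of the peaks lay in the body of kirre, where the strongest had a TSS of another gene, CG32795, as the nearest. Of the 8 series peaks, 5 were at kirre and 1 each at sls, sns and mbc. The founder cell receptor gene rst, the adaptor gene rols, the attachment gene kon and the sarcomere genes Mhc and bt had no series peak and none in any other thresholded list. Thus 4 of 9 genes (44.4%) had a series peak, while 7.82% of all protein-coding genes had one. In the conservative list, taken as made by comparing the replicates with each other, 3 of 9 genes (kirre, sls and sns) had a peak and 7.24% of all genes did. In the list of replicate 1, 1 of 9 genes (kirre) had a peak, against 5.49% of all genes, and in that of replicate 2, 2 of 9 (kirre and sls) did, against 3.36%. These shares are descriptions with no test, and the 9 genes are long, which bears on the count as set out further on.

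**Figure D1:**
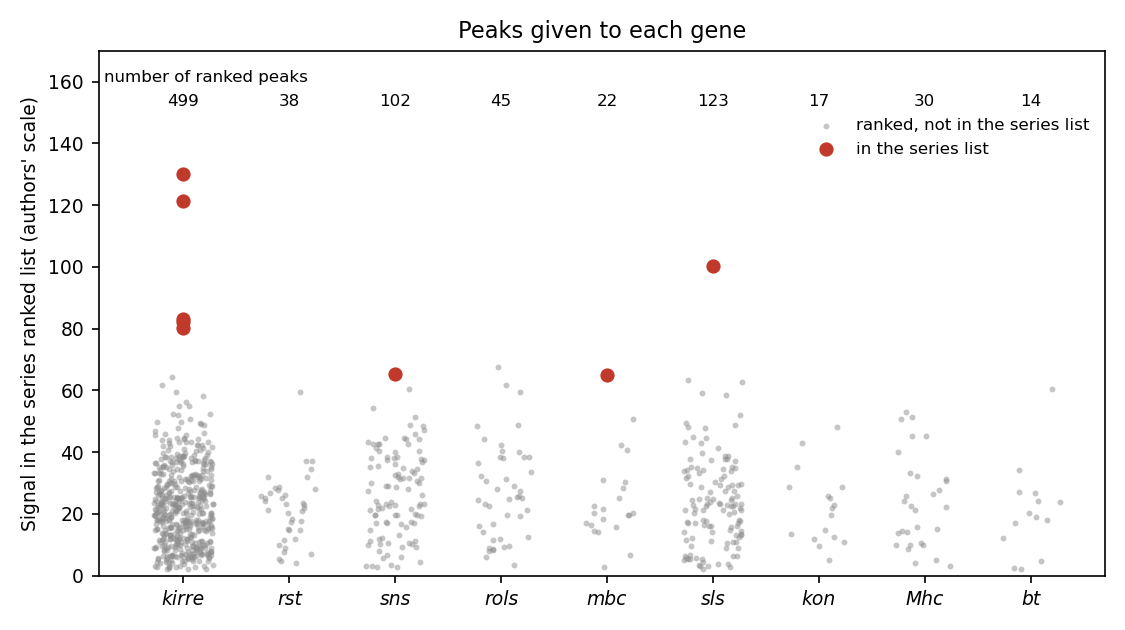
Signal (vertical axis, authors' scale) of every peak of the series ranked list given to each of the 9 genes (horizontal axis), with the number of ranked peaks above each gene; red points are in the series thresholded list and grey points are not. The red points are 5 at kirre, between 80.1 and 130.1, and 1 each at sns (65.4), mbc (64.9) and sls (100.2), and the other 5 genes have grey points only. The peaks drawn at rst, which lies inside kirre, are also drawn at kirre.

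The kirre gene (FBgn0028369; X, 2740384 to 3134532, plus strand) encodes the founder cell attractant that fusion-competent myoblasts recognise. Its strongest site lay in an intron (X, 2786575 to 2786924), 45945 bp from the nearest kirre TSS, and it also lay inside CG32795 (FBgn0040384), 2572 bp downstream of a TSS of that gene. It had a signal of 77.6 in replicate 1 and 61.2 in replicate 2, and 130.1 in the series list, rank 393 of 1140. It passed the threshold in both replicates, with an IDR of 0.00154 in replicate 1 and 0.00420 in replicate 2. The second site (X, 2743074 to 2743423) had 59.6 in replicate 1 and 63.5 in replicate 2, and 122 in the series list, rank 449. It passed in both replicates as well. This site lay 2444 bp downstream of a TSS near the 5' end of kirre, but also within Syx4 (FBgn0024980), a syntaxin gene of membrane fusion on the opposite strand, 291 bp upstream of one of its TSSs.

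The other 3 kirre sites were weaker, and none was in the thresholded lists of both replicates. A site 1024 bp from the one in Syx4 (X, 2744098 to 2744447), 197 bp upstream of the outermost Syx4 TSS, had 45.2 in replicate 1 and 39.6 in replicate 2, and 80.1 in the series list. It was in the list of neither replicate, and its IDR in replicate 2 was 0.682, but the conservative list held it with a score of 968. A site far down the gene (X, 3019571 to 3019920), 30695 bp downstream of the nearest kirre TSS with no other gene there, had 52.7 in replicate 1 and 29.1 in replicate 2, and 83.2 in the series list. It passed in replicate 1 (IDR 0.00484) and not in replicate 2 (IDR 0.365), and it was not in the conservative list. The last site (X, 3085850 to 3086199), 13525 bp upstream of the nearest kirre TSS, had 45.1 in replicate 1 and 42.0 in replicate 2, and 82.2 in the series list. The values of the replicates were close there, yet neither reached the threshold on its own. The conservative list held that site with a score of 995.

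The kirre locus is large and shared with other genes. Its body spans 394.1 kb, only 4 genes are longer, and 21 protein-coding genes lie within it, among them the fusion receptor gene rst and the eye colour gene w. Both sites beside Syx4 and the site in CG32795 had a TSS of those genes as the nearest, so 3 of the 5 kirre peaks were given to kirre by its body alone. The 2 sites with a kirre TSS as the nearest of any gene were those at X, 3019571 and X, 3085850. The gaps between neighbouring summits were 1024 bp, 42.5 kb, 233.0 kb and 66.3 kb, and the 233.0 kb without a series peak include rst. Series peaks were spaced at 1.27 per 100 kb of the kirre body, against 0.858 on the X chromosome and 0.852 on all chromosomes used. At kirre's own TSSs no peak was strong: the highest ranked peak within 500 bp of one, 116 bp upstream, had 21.9 in replicate 1 and 16.4 in replicate 2, and 23.4 in the series ranked list.

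**Figure D2:**
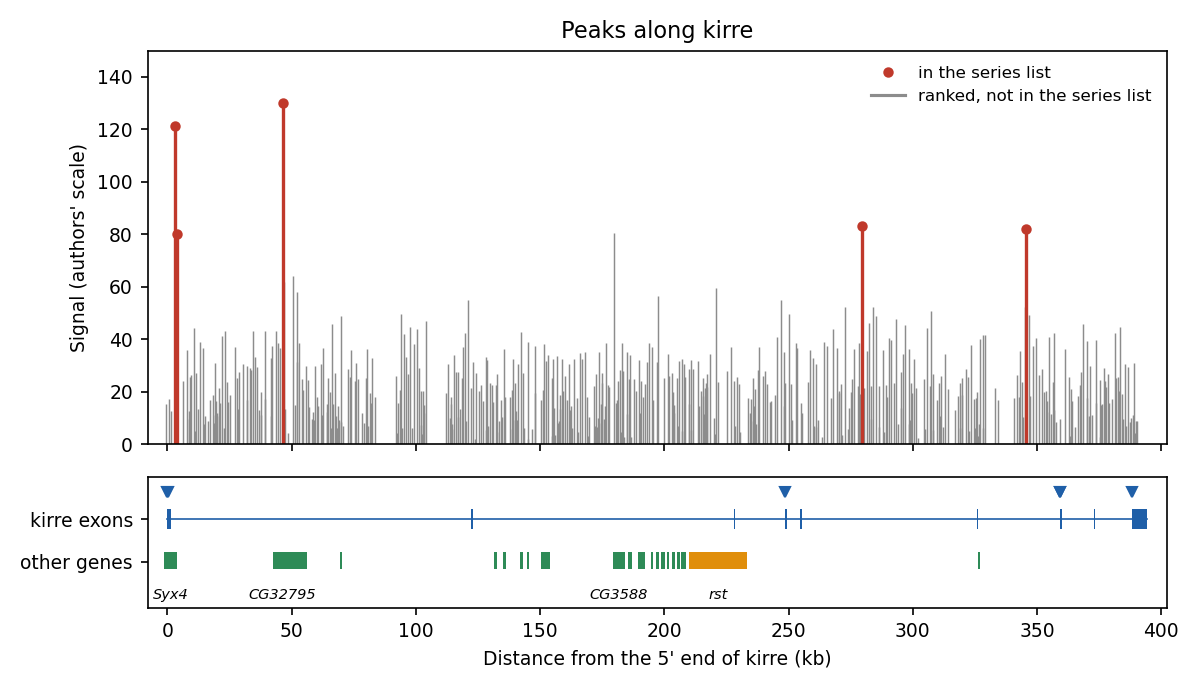
Signal (upper panel, vertical axis, authors' scale) of the ranked peaks along kirre, by distance in kb from its 5' end; red bars with points are in the series list, grey bars are not, and the lower panel draws kirre exons, its TSSs (triangles) and other protein-coding genes, with rst in orange. Of the 5 red bars, those of 122 and 80.1 stand side by side at the 5' end, and that of 130.1 stands at 46.4 kb. Those of 83.2 and 82.2 are in the far part of the gene, and the tallest grey bar, 80.4, is at CG3588.

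A sixth place in kirre lay just outside the threshold of the series list. This peak (X, 2919770 to 2920119) had its summit inside CG3588, 174 bp upstream of one of the TSSs of that gene. It had 51.7 in the first replicate compared and 32.1 in the second, and 80.4 in the series ranked list. Its score there was 756, an IDR of 0.0150. The conservative list held it with a score of 843, just inside. That list also held a second summit of 7.82 on the flank of the strong site in Syx4, and it lacked the site at X, 3019571, so 4 of its 6 kirre peaks are series peaks.

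The receptor gene rst (FBgn0003285; X, 2950399 to 2973834, minus strand), which overlaps kirre in function and lies inside its body, had no thresholded peak. The highest of its 38 ranked peaks, in an intron 12463 bp downstream of its TSS, had 30.9 in replicate 1 and 18.97 in replicate 2, and 59.5 in the series ranked list. Its IDR of 0.587 was far from the threshold. The highest ranked peak within 500 bp of the rst TSS had 17.7 in the series ranked list and 21.1 in replicate 2, and replicate 1 had no ranked peak there.

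On the side of the fusion-competent myoblast, sns (FBgn0024189; 2R, 8798489 to 8856091, plus strand) had a peak 2002 bp upstream of its TSS in intergenic DNA (2R, 8796312 to 8796661). The signal was 38.5 in replicate 1 and 43.9 in replicate 2, and 65.4 in the series list, rank 1075 of 1140. It passed in neither replicate alone, with an IDR of 0.122 in replicate 1 and 0.0414 in replicate 2, and it was in the conservative list. A second sns peak was below the threshold (score 629, IDR 0.0305, signal 60.4). It lay inside the sns body and nearest to the TSS of RyR, the ryanodine receptor gene, 11896 bp away. The sns body held 1.72 ranked peaks per kb, the highest density of the 9 genes, against 1.05 per kb over all chromosomes used.

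The adaptor gene rols (FBgn0041096; 3L, 12008225 to 12064859, minus strand) had no thresholded peak. Its highest ranked peak, 1438 bp upstream of its TSS (3L, 12066122 to 12066471), had 34.1 in replicate 1 and 22.5 in replicate 2, and 67.5 in the series ranked list. That signal was above those of the series peaks at sns (65.4) and mbc (64.9), but its score of 617, an IDR of 0.0326, was below the threshold. A peak 82 bp upstream of the rols TSS had 35.3 in replicate 1 and 13.98 in replicate 2, and 48.6 in the series ranked list. Replicate 1 was the higher at both sites.

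The Rac activator gene mbc (FBgn0015513; 3R, 23781765 to 23801634, plus strand) had a peak in an intron 2517 bp downstream of its TSS (3R, 23784107 to 23784456). It had 33.1 in replicate 1 and 32.0 in replicate 2, and 64.9 in the series list, the lowest of the 8 peaks at rank 1078. Its score of 839 was just inside the threshold of 830, and it was in no replicate list and not in the conservative list. A further series peak lay beside mbc without being given to it (3R, 23781484 to 23781833), which was looked up after its values were seen. Its summit was 106 bp upstream of the mbc TSS and 38 bp upstream of that of Nup98-96 (FBgn0039120), a nuclear pore gene that starts 144 bp away on the other strand. It had 36.9 in replicate 1 and 39.4 in replicate 2, and 73.6 in the series list, rank 993, and it was in neither replicate list. A peak between divergent starts cannot be given to either gene from these data.

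Among the sarcomere genes, sls (FBgn0086906; 3L, 2039681 to 2115611, minus strand), whose product spans from the Z-disc towards the thick filament, was the only 1 of 3 with a series peak. The site lay 314 bp upstream of its TSS in intergenic DNA (3L, 2115750 to 2116099). It had 34.6 in replicate 1 and 70.3 in replicate 2, and 100.2 in the series list, rank 603. The replicates disagreed: replicate 2 passed (IDR 0.00202) and replicate 1 did not (IDR 0.123). The ratio of the signals was taken from the comparison of the replicates, first over second replicate compared, whose values at all 8 sites equal those of replicate 1 and replicate 2. It was 0.492 at sls, and it was lower at 20 of the 1125 series peaks that had one (1.78%). The site was in the conservative list. Further sls peaks below the threshold lay upstream. That at 14571 bp from the TSS had a signal of 62.7 and a score of 593 (IDR 0.0371). That at 9862 bp had 52.0 and a score of 543 (IDR 0.0492).

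The myosin heavy chain gene Mhc (FBgn0264695; 2L, 16766566 to 16788766, plus strand) and the Projectin gene bt (FBgn0005666; 4, 724400 to 776474, plus strand) had no thresholded peak, and no ranked peak within 500 bp of their TSSs. The highest of 30 Mhc peaks, in an intron near the far end of the gene and nearest to the TSS of the neighbour Cyt-b5-r, had 32.8 in replicate 1 and 21.3 in replicate 2, and 52.9 in the series ranked list (IDR 0.108). The highest of 14 bt peaks, in a coding exon 31077 bp from a bt TSS, had 26.8 in replicate 2 and no ranked peak in replicate 1, and 60.5 in the series ranked list (IDR 0.193). The bt body held 0.269 ranked peaks per kb, the lowest density of the 9 genes. Chromosome 4, which carries bt, held 59 ranked peaks in all, 0.0438 per kb, and no series peak, so nothing particular to bt can be read from its lack of one.

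The attachment gene kon (FBgn0032683; 2L, 18487747 to 18503978, minus strand) had no thresholded peak and the lowest maximum of the 9 genes. Its highest ranked peak, 954 bp upstream of a TSS, had 19.5 in replicate 1 and 36.8 in replicate 2, and 48.2 in the series ranked list (IDR 0.0776). Replicate 2 was the higher there, as at sls, sns and the kirre site in Syx4. A peak 202 bp upstream of another kon TSS had 28.8 in the series ranked list and 21.4 in replicate 2, with none in replicate 1.

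Set beside the other 1132 series peaks, most of the 8 peaks were in the weaker part of the list and lay in introns. Their median signal was 82.7, with a range of 64.9 to 130.1, against a median of 105 for the others. None was in the top quartile of signal, 3 were in the lowest quartile and 2, both at kirre, were above the series median. Summits in introns numbered 6 of 8 (75%), all 5 at kirre among them, against 45.6% of the others, and the other 2 were intergenic. The rule takes every peak in the body of a listed gene, and the other series peaks were not chosen so. The shares by place are therefore not like for like. Of the 8, 5 (62.5%) were more than 2 kb from a protein-coding TSS, against 34.8% of the others, and 3 (37.5%) were within 500 bp of one, against 44.2%. Those 3 promoter sites were the pair at Syx4 and the site at sls. Median GC content within 100 bp of the summit was 38.6%, against 37.3%.

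Repeatability was uneven over the 8 peaks. Only 2 of 8 (25%), both at kirre, overlapped a thresholded peak of both replicates, against 33.9% of the other series peaks, and 4 of 8 (50%) overlapped one of neither, against 31.9%. The conservative list held 6 of 8 (75%), against 81.0% of the others. All 8 had a ranked peak in each replicate. The ratio of the signals had a median of 1.056, between 0.492 at sls and 1.81 at the kirre site of X, 3019571, against a median of 1.29 for the other peaks. The replicates differed by at most 1.27 times at 6 sites and by more at the sls site and the kirre site of X, 3019571, which each passed in a single replicate.

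**Figure D3:**
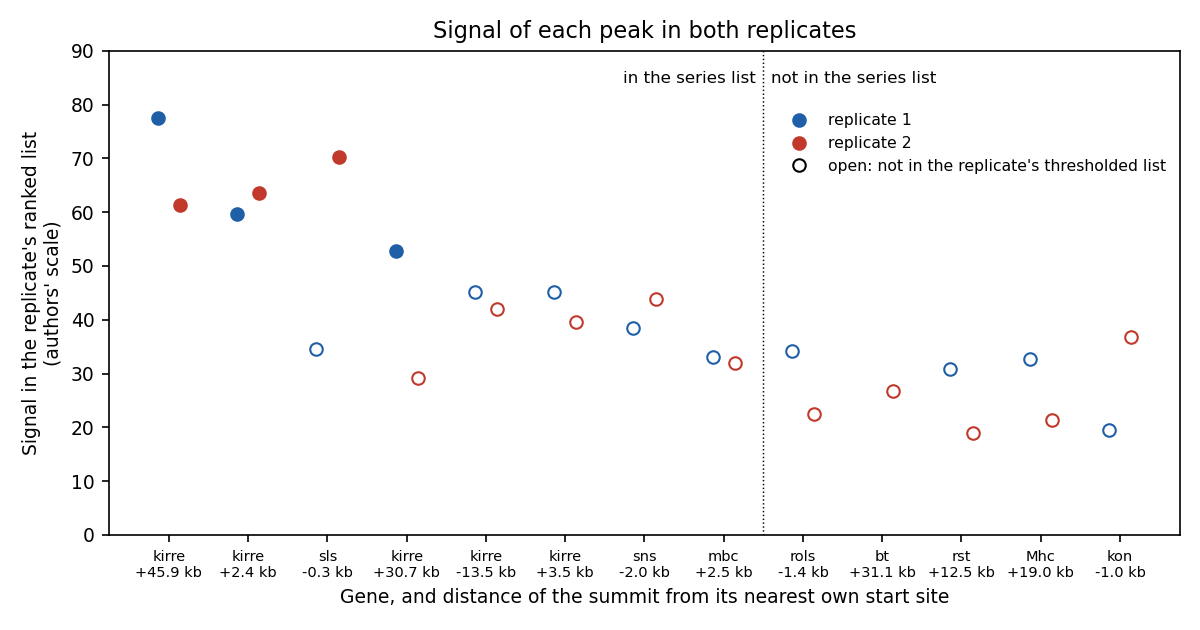
Signal (vertical axis, authors' scale) in the ranked list of replicate 1 (blue) and replicate 2 (red) at each of the 8 series peaks and, right of the dotted line, at the highest ranked peak of the 5 genes without one; filled points are in that replicate's thresholded list, and the horizontal axis names the gene and the distance of the summit from its nearest own TSS. Only the 2 leftmost sites, both at kirre, are filled in both replicates (77.6 and 61.2, 59.6 and 63.5), and the widest gap between replicates is at sls (34.6 and 70.3).

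The ranked peaks of the 9 genes, most of them below the threshold, were close in signal to those of the rest of the genome. The 9 genes held 852 ranked peaks, 499 of them at kirre, with a median signal of 22.6, against 23.3 for the other 139354 ranked peaks. The 38 ranked peaks of rst are also among those of kirre, and each was counted once in the 852. A score of 830 or more was reached by 0.939% of them, against 0.865% of the others. A ranked peak within 500 bp of an own TSS was present at 7 of the 9 genes (all but Mhc and bt), and 64% of all protein-coding genes had one. A series peak so close to an own TSS was present at 2 of the 9 (sls, and mbc through the peak shared with Nup98-96), and 5.02% of all genes had one.

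Gene length moved with the count. The median body was 52.1 kb for the 9 genes and 2.17 kb for all protein-coding genes, and longer genes had a series peak more often. None of the 9 is under 5 kb, a length at which 4.88% of genes had one. Between 5 and 20 kb 1 of 2 (mbc, not kon) had one, against 11.9% of all genes of that length, and between 20 and 50 kb 0 of 2 (rst and Mhc), against 22.2%. At 50 kb and over 3 of 5 (kirre, sns and sls, not rols and bt) had one, against 42% of all such genes. In every length class the count for these genes lies within 1 gene of the background share, so the count is no result about them as a group. The part of length in the count was not tested. Among the 9 genes with a ranked peak and 0.5 to 2 times its length, kirre itself included, kirre had the highest signal and 6 had a series peak. The highest signal of sls ranked 77 among 464 such genes, and that of sns ranked 341 among 619.

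**Figure D4:**
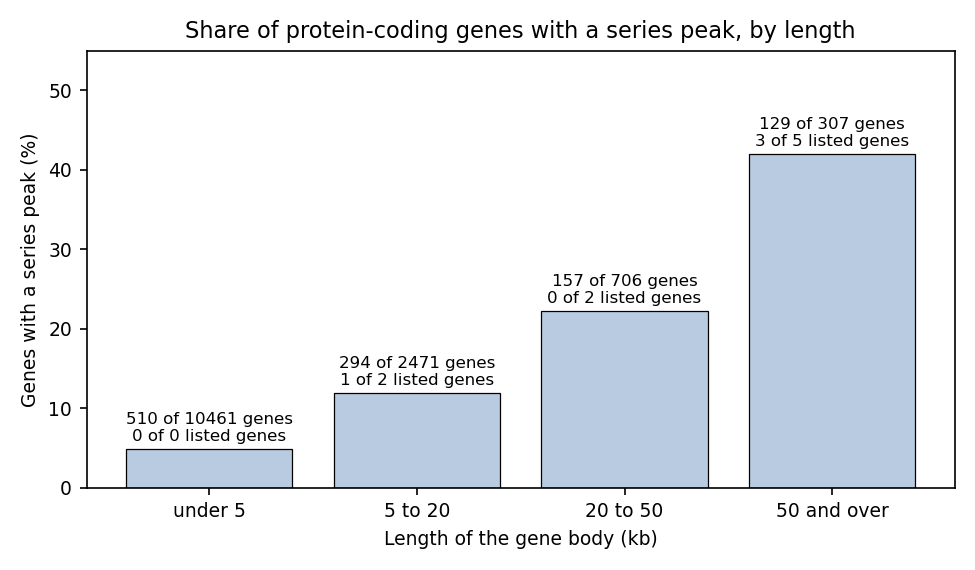
Share of protein-coding genes with a series peak (vertical axis, percent) by length of the gene body in kb (horizontal axis), with the counts of all genes and of the 9 listed genes above each bar. The share is 4.88% under 5 kb, 11.9% from 5 to 20 kb, 22.2% from 20 to 50 kb and 42% at 50 kb and over, where 5 of the 9 genes lie.

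Sequence motifs within 100 bp of the 8 summits were counted on both strands, beside all 1140 series windows. The T-box letters GGTGTGA were in 0 of 8 windows, against 1.58% of the series windows. The Mef2 site, named for the muscle factor, was in 1 of 8, against 11.1%, and the forkhead site, the type bound by the visceral muscle factor Biniou, in 2 of 8, against 33.6%. The Tinman site was in 1 of 8, against 9.04%, and the Twist site CATATG, itself an E-box, in 1 of 8, against 6.84%. The E-box letters CANNTG, which the TCAAGTG form of the Tinman site contains, were in 6 of 8, against 61.8% of series windows and 67.9% of ranked windows below the threshold. The letters ACAGTG were in 2 of 8, against 22.6%, and the promoter element DRE, TATCGATA, was in 0 of 8, against 2.02%. No test was made on 8 windows, and a match is a run of letters, not a shown binding event.

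Wider lists of muscle genes place the 9 genes in their pathways. A series peak was found at 13 of 93 such genes (13.98%, median body 7.77 kb), against 7.82% of all genes. Other fusion genes had 1 of 19, namely Pak3 (FBgn0044826), a kinase that acts on actin during fusion, with 87.5 in replicate 1 and 61.6 in replicate 2, and 167 in the series list, in both replicate lists. No other gene of that list had one. Of 7 further thick and connecting filament genes 0 had a series peak, and neither had Mhc or bt. Of 16 thin filament genes only tmod (FBgn0082582), which caps thin filament ends, had one, with 79.1 in replicate 1 and 72.8 in replicate 2, and 167 in the series list. Both of these sites lay in introns, and in the series list both had a higher signal than any site at the 9 genes.

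A series peak was found at 7.82% of all protein-coding genes, and at 2 of 9 Z-disc, nuclear anchor and chaperone genes (22.2%, median body 9.8 kb). They were Msp300 (FBgn0261836), a nesprin that anchors muscle nuclei, with 97.04 in replicate 1 and 96.2 in replicate 2, and 199.8 in the series list, and the Hsp90 gene Hsp83 (FBgn0001233), with 85.6 in replicate 1 and 63.8 in replicate 2, and 148 in the series list. Hsp83 is active in most cells and is not particular to muscle. Of 16 muscle attachment genes 3 had a peak (18.75%, median body 18.5 kb). They included the integrin gene mew (FBgn0004456) with 61.4 in replicate 1 and 49.5 in replicate 2, and Grip (FBgn0029830), whose product is an intracellular partner of Kon-tiki, with 36.9 in replicate 1 and 28.9 in replicate 2. The third was the PINCH gene stck (FBgn0020249), with 81.0 in replicate 2 and no matching ranked peak in replicate 1. The mew site was in both replicate lists, the stck site in that of replicate 2 alone and the Grip site in neither, so of kon and its partner Grip only Grip had a series peak, a weak one of 76.5.

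Muscle transcription regulators had 5 of 22 genes with a series peak (22.7%, median body 11.6 kb), against 7.82% of all protein-coding genes. The strongest was org-1 (FBgn0021767), a T-box gene of muscle identity, with 145.1 in replicate 1 and 55.9 in replicate 2, and 203 in the series list. The regulator genes zfh1 (FBgn0004606), with 88.3 in replicate 1 and 55.2 in replicate 2, and Poxm (FBgn0003129), with 84.6 in replicate 1 and 55.7 in replicate 2, had 136 and 134 in the series list. Next came the visceral mesoderm gene bin (FBgn0045759), with 41.1 in replicate 1 and 55.5 in replicate 2, and 94.2 in the series list. In the FGF pathway of muscle 1 of 4 genes had a peak (25%, median body 22.5 kb). It was the ligand gene ths (FBgn0033652), with 69.6 in replicate 1 and 70.8 in replicate 2, and 147 in the series list. The sites at org-1 and ths passed in both replicates, those at zfh1 and Poxm in replicate 1 alone and that at bin in neither. No test was made of these lists, and the median body over all of them, 7.77 kb, is longer than the 2.17 kb of all protein-coding genes. Of all genes of 5 to 20 kb 11.9% had a series peak, and of those of 20 to 50 kb 22.2%.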

How the data were processed

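Peaks had been called on dm6 against a control and filtered by IDR, per the notes deposited with the files. The sources used here do not name the aligner or the peak caller. The deposited signal is the authors' value per peak. The deposited score is a scaled IDR score, and a deposited −log10 of the IDR in the ranked lists was turned back into an IDR here. The series list holds 1230 peaks, of which 90 on other sequences were left out. Replicate values are those of the ranked peak overlapping by at least 1 bp in each replicate's ranked list. Read depth is unknown. The labels do not say whether the biological replicates came from separate collections.

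Gene models were those of Ensembl release 115, and the RefSeq genome of the same assembly gave the sequences; all peaks end inside its chromosomes. A summit in several classes was counted in the order 5' UTR, coding exon, 3' UTR, intron, intergenic. All 93 symbols of the 7 wider lists were matched, some through older names. The 9 genes, the wider lists and the letters ACAGTG were chosen with earlier results of these data known, and no test was made. The genes named are the 9 members with every series peak or, with none, their highest ranked peak, the other gene where a peak lay nearest to its TSS, and up to 4 genes of each wider list with the highest signal. Alternatives were the conservative list, each replicate's own list, stricter thresholds, other ways to give peaks to genes, other overlaps and other windows. Functions were checked on simulated data with planted answers. Python 3.11.15, numpy 2.4.6, pandas 2.3.3 and matplotlib 3.10.9 were used.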

Additional observations from a re-analysis of the deposited data

How the results depend on the processing

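The counts are small and rest on kirre. Leaving out kirre, an alternative chosen after seeing the data, left 3 of the 8 peaks and 3 of the 4 genes. With a single replicate list in place of the series list, 1 to 2 genes had a peak in place of 4. The peaks numbered 3 with either list. Those lists hold 777 peaks (replicate 1) and 468 peaks (replicate 2), against 1140, and the part of their length was not tested. A score of 1000 left 2 genes and 4 peaks, and a signal at or above the series median left 1 gene (kirre) and 2 peaks. Gene bodies alone gave 2 genes (kirre and mbc), and the nearest TSS alone gave 5 peaks, because 3 kirre peaks lie nearest to Syx4 or CG32795. With only the outermost TSS of each gene, rst was counted as well. The peaks stayed at 8 there, so rst shared a peak already counted and brought in no further one. All 8 peaks, in place of 2, were found in both replicates when the ranked lists, which have no threshold, were used. With windows of 250 bp to either side, the Mef2 site was in 2 windows in place of 1 and the forkhead site in 4 in place of 2. With 50 bp, the Tinman site was in 0 in place of 1, the E-box in 1 in place of 6 and ACAGTG in 1 in place of 2. With single replicate lists the muscle regulators with a peak numbered 1 to 4 in place of 5, and the attachment genes 1 to 2 in place of 3. Of 71 alternatives 52 stayed within 1.5 times the count reported and 19 did not. No paired analysis was possible because there is 1 group. Every lack of a peak is a lack at the IDR threshold, which is not one of signal: the rols peak of 67.5 missed it and the mbc peak of 64.9 passed. Depth is unknown, and binding is not shown to be absent where no peak was listed.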
